A study of Mus musculus with 46 samples.

Results

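The genes described here write, read, keep and remove DNA methylation in the mouse genome. They were the listed 9 of 22380 protein-coding gene entries of the mm9 annotation (GENCODE vM1), namely Dnmt1, Uhrf1, Dnmt3a, Dnmt3b, Dnmt3l, Tet1, Tet2, Tet3 and Tdg, and each was followed through called ChIP-Seq peaks of the variant histone H3.3, of H3K4me3 and of H3K36me3. A peak was given to a gene when it overlapped the gene or the 1 kb on either side. The value of a gene in a library is the summed score of its peaks, where the score is the number of sequenced tags in a peak per 10 M tags of the library, and the length of DNA under those peaks is given beside it.

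DNA methylation in mammals sits mostly on the cytosine of CG pairs. Dnmt1 copies it onto new DNA strands with Uhrf1, which recognises sites methylated on the old strand only. Dnmt3a and Dnmt3b place methylation de novo, and Dnmt3l has no catalytic activity of its own and assists them. Tet1, Tet2 and Tet3 oxidise methylated cytosine, and the glycosylase Tdg excises some of the oxidised bases. Pluripotent cells are known for high Dnmt3b, Dnmt3l, Tet1 and Tet2 and for little Tet3. H3.3 is a replacement histone found over active gene bodies and regulatory elements, H3K4me3 marks active gene starts and H3K36me3 marks transcribed gene bodies.

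The study asked how H3.3 moves on chromatin while fibroblasts change fate. Mouse embryonic fibroblasts with an IRES-EGFP cassette behind the Oct4 gene received pMXs retroviruses carrying Oct4, Sox2, Klf4 and c-Myc, in a medium with ascorbic acid, LIF, bFGF and CHIR99021, and were taken on day 0 (D0), day 3 (D3), and, after sorting, on days 6 and 9 by Thy-1 and on days 12 and 16 by SSEA-1. The Thy-1-negative (D6T-, D9T-) and SSEA-1-positive (D12S+, D16S+) cells are the fraction on the successful route, and D6T+, D9T+, D12S- and D16S- are the other fraction of the same day. The end points were induced pluripotent stem cells (iPSCs) and ESD3, a line of mouse embryonic stem cells. A second series took fibroblasts (MEF) infected with Scl, Lmo2, Runx1 and Bmi1 retroviruses on day 4 (D4) and as c-Kit-sorted cells (cKit+, cKit-) after co-culture with OP9 stroma, a setting in which stromal cells can be carried along. Of 46 samples, 16 were input chromatin and 30 had peak lists. H3.3 was mapped 16 times, H3K4me3 and H3K36me3 7 times each. Each group was 1 library, so no comparison has a replicate check, and the 95% intervals given cover counting error only.

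Libraries differed in ways that touch every value below. H3.3 libraries of the reprogramming series held 18.7 to 41.2 M tags, with iPSCs the deepest and D16S+ the shallowest, and 4.88% to 22.0% of the tags lay in peaks. H3K36me3 libraries differed more widely, with 42.4% of tags in peaks in D9T-, 31.3% in D0, 2.88% in iPSCs and 1.07% in D12S+. In the second series 37.2% of D4 tags and 1.65% of cKit+ tags lay in H3.3 peaks. The fibroblast and iPSC labels held against marker genes, while the hematopoietic genes did not set the cKit+ library apart from MEF. Summed H3.3 over 10 fibroblast genes was 6255.6 in D0 and 344.3 in iPSCs, with peaks on 10 and 4 of the 10, and over 10 pluripotency genes 74.8 and 7205.7, with peaks on 4 and 10. The cKit+ library had no H3.3 peak on any of the 10 pluripotency genes and peaks on 3 of the 9 annotated hematopoietic genes, fewer than the 4 in MEF. It had peaks on 8 of the 10 fibroblast genes, with a summed score of 343.2, against 161.7 over the hematopoietic genes. The cKit- library had peaks on 6 of the 10 fibroblast genes (355.8) and on 5 of the 9 hematopoietic genes (344.1).

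Among the 9 genes, Tet1 carried the most H3.3 in iPSCs per kb of gene. Its window held a score of 9.99 per kb, against 1.04 in D0. Tet1 lies at chr10:62267318-62361866 on the minus strand. The summed H3.3 score was 100.8 over 6.51 kb at D0, 46.8 at D3, 78.7 at D6T-, 165.5 at D9T-, 264.4 at D12S+, 385.5 at D16S+ and 964.1 over 75.5 kb for iPSCs. From D3 on, each library of the successful route was above the one before it. In the other fractions the score was 57.9 at D6T+, 81.8 at D9T+, 209.4 at D12S- and 108.1 at D16S-. Between iPSCs and D0 the log2 ratio was 3.26 (95% counting interval 3.08 to 3.44). The mean score per kb of peak was 0.824 times that of D0, so the higher sum went with a longer stretch under peaks and not with taller ones. ESD3, the other pluripotent library, held 116.7 over 8.41 kb, close to D0, with a log2 ratio over D0 of 0.21 (-0.04 to 0.46). The median of that ratio over all genes with both was -1.51, and Tet1 lay at the percentile of 84.7.

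Most Tet1 peaks in iPSCs stood less than 4-fold above input. Of 23 peaks 1 reached a fold over input of 4, against 3 of 6 at D0, and with only such peaks the iPSCs-over-D0 log2 ratio turned to -2.29. In all iPSC H3.3 peaks the median fold over input was 3.25, against 4.13 at D0 and 4.25 in ESD3. With the input's share taken off each score the log2 ratio stayed at 3.09.

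**Figure D1:**
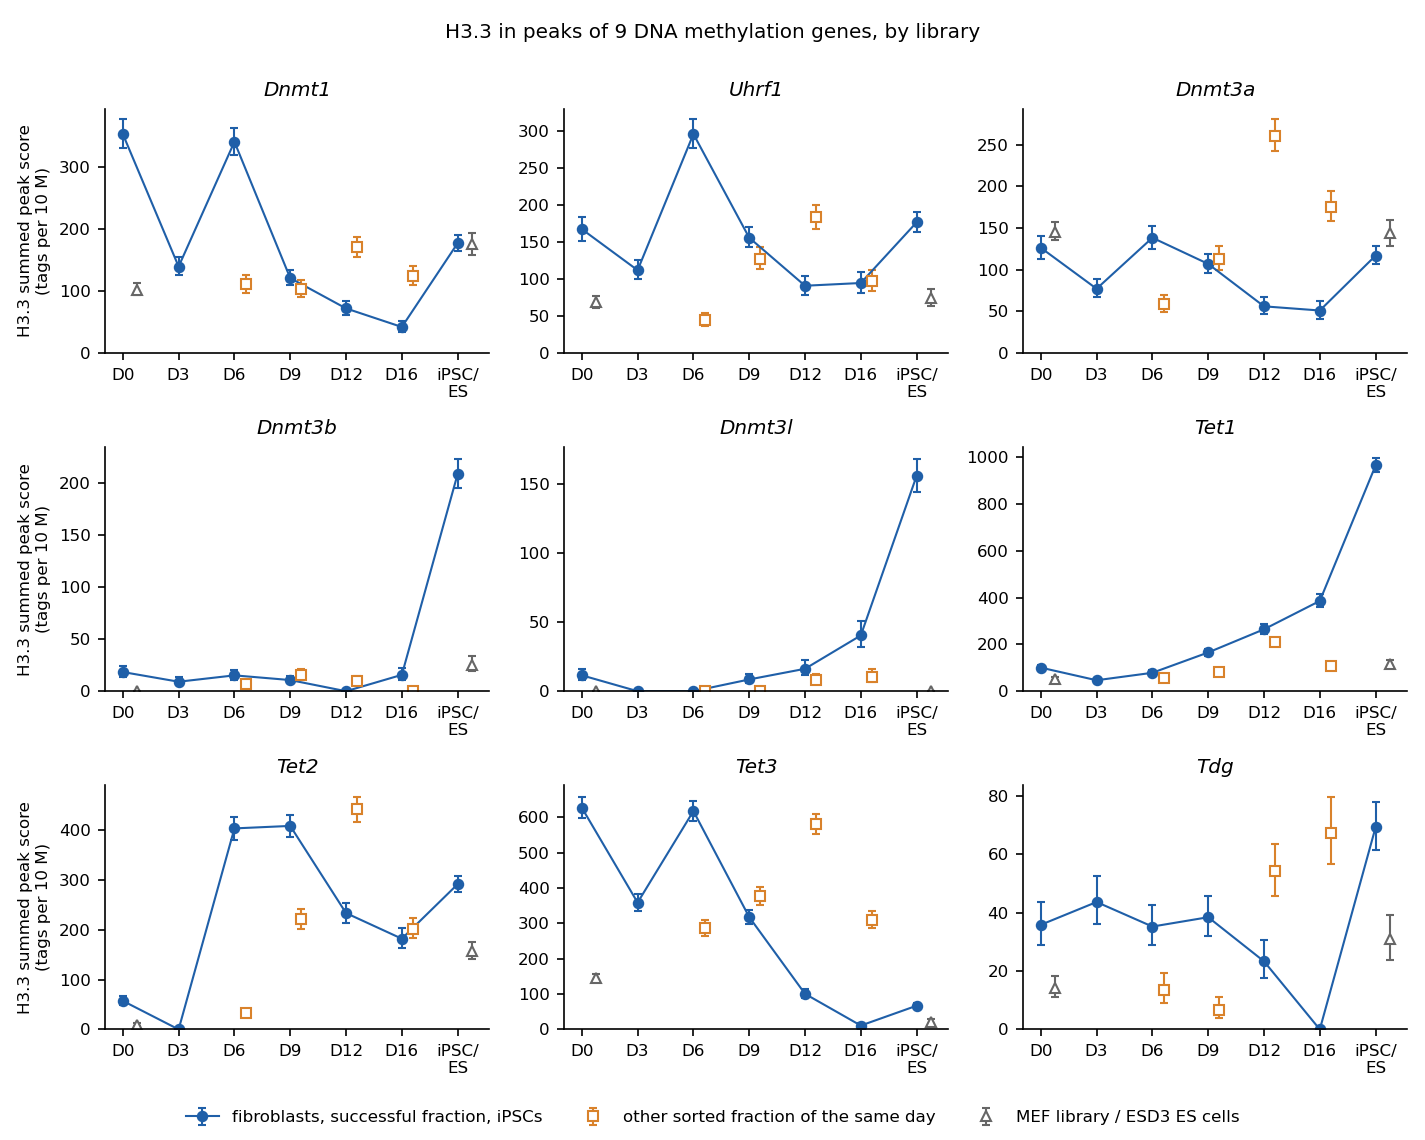
Summed H3.3 peak score (tags per 10 M, linear axis from 0) of the 9 genes in the 12 reprogramming libraries and MEF, 1 panel per gene; filled circles are D0, D3, the successful fractions and iPSCs, open squares the other fraction of the same day, triangles MEF and ESD3, and bars 95% Poisson counting intervals. Tet1 is highest in iPSCs at 964.1 while Tet3 is at 627.0 in D0 and 67.0 in iPSCs, and Dnmt3b and Dnmt3l reach at most 40.3 outside iPSCs.

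H3K4me3 on Tet1 lay at different places along the route. In D0, D3, D6T- and D9T- no H3K4me3 peak lay within 1 kb of either annotated start of a full-length transcript. The summed score of 292.2 at D0 came mainly from a peak of 171.5 in the first intron, 11.35 to 13.55 kb after the first start, and a peak of 115.0 at 32.51 to 34.89 kb, which overlaps an exon. At the first start H3K4me3 was 37.8 at D12S+, 22.5 at D16S+ and 60.0 over 3.39 kb for iPSCs, and at the second start, 19.1 kb further on, 5.6, 0.0 and 38.4. The D0 peak in the first intron was matched by an overlapping peak in each of the 7 libraries, at 117.3 at D3, 192.7 at D6T-, 147.0 at D9T-, 140.3 at D12S+, 37.6 at D16S+ and 333.7 over 9.70 kb for iPSCs. So H3K4me3 within 1 kb of the annotated starts was seen in the 3 latest libraries and the intronic site in all 7. These sites were picked after their values were seen. The bases before the first start (chr10:62361867-62362116, mm9, minus strand) and at the middle of the intronic D0 peak (chr10:62349291-62349540, minus strand) are shown because they differed in when the mark was present, with CG pairs in capitals:
Tet1 first start: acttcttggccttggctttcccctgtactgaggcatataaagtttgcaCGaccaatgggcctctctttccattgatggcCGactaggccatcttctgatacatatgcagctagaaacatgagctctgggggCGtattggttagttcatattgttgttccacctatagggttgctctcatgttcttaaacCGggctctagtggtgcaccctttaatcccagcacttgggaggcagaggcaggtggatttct
Tet1 first-intron peak: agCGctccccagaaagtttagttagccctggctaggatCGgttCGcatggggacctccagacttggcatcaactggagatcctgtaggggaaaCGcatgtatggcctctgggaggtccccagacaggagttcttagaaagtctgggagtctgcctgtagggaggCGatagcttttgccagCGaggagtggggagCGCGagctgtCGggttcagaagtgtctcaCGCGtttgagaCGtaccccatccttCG
The window at the start holds 4 CG pairs and the intronic window 13, against a median of 8 in the 250 bases upstream of 22375 genes.

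H3K36me3 on Tet1 was 82.3 at D0, 17.1 at D3, 0.0 at D6T-, 88.0 at D9T-, 13.5 at D12S+, 26.5 at D16S+ and 40.8 over 3.07 kb for iPSCs. The log2 ratio of iPSCs over D0 was -1.01 (-1.37 to -0.66), against a median over all genes with both of -3.19. Scaled to the tags inside peaks of each library, the Tet1 ratio turned to 2.43. The high D9T- value was not particular to Tet1, as H3K36me3 was highest in D9T- also for Dnmt1, Uhrf1, Dnmt3a, Tet2, Tet3 and Tdg.

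**Figure D2:**
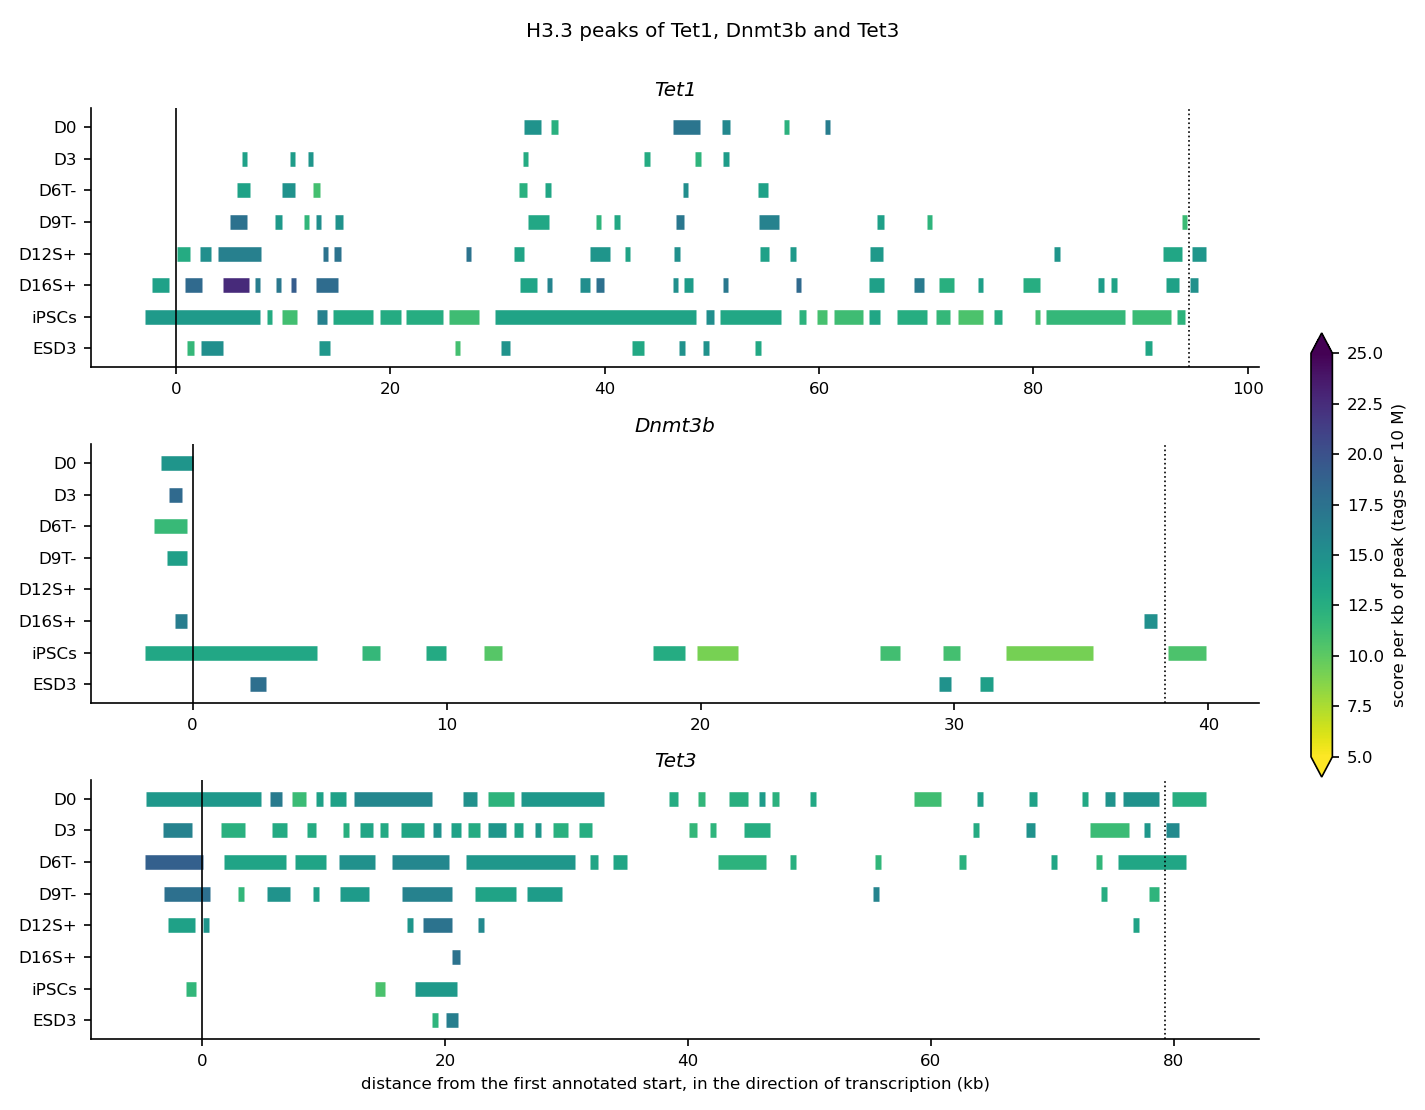
H3.3 peaks of Tet1, Dnmt3b and Tet3 placed by distance from the first annotated start (kb, solid line; the dotted line is the gene end), 1 row per library of the successful route and ESD3, coloured by score per kb of peak. In iPSCs peaks cover 75.5 kb of Tet1 and 18.2 kb of Dnmt3b, and they cover 44.9 kb of Tet3 in D0 and 5.01 kb in iPSCs.

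Tet2 (chr3:133126643-133207354, minus strand), the sister enzyme that lacks the CXXC domain of Tet1 and Tet3, showed its H3.3 earlier. The score was 57.3 over 4.73 kb at D0, with no peak at D3, then 403.6 at D6T-, 408.6 at D9T-, 233.6 at D12S+, 182.1 at D16S+ and 291.6 over 23.9 kb for iPSCs. The highest value of all, 441.8, was in D12S-, a fraction off the successful route, and D6T+, D9T+ and D16S- held 32.8, 220.7 and 202.2. The day 6 and day 9 values of the successful fraction lay within each other's counting error. Between iPSCs and D0 the log2 ratio was 2.35 (2.11 to 2.60), and with peaks of fold over input of at least 4 alone it was -1.12. ESD3 held 156.9 and MEF 9.0. H3K4me3 at the Tet2 start was 307.2 at D0, 253.8 at D3, 441.5 at D6T-, 326.7 at D9T-, 154.0 at D12S+, 68.9 at D16S+ and 153.2 for iPSCs. D6T- was thus the highest in H3K4me3 at the start. In H3.3 it lay within counting error of D9T-, the highest on the successful route. Summed H3K4me3 was highest in D6T- also for Dnmt1, Uhrf1, Dnmt3b and Tdg. That library had the largest share of tags in H3K4me3 peaks, 34.8%, and the part of this was not tested. From D6T- on, 4 to 9 further H3K4me3 peaks lay inside the gene where D0 and D3 had none. H3K36me3 was 462.4 over 26.6 kb at D0, 911.4 at D9T- and 14.6 over 1.00 kb for iPSCs. The 250 bases upstream (chr3:133207355-133207604, minus strand) are shown because they are among the richest in CG of all genes and repeat themselves, with CG in capitals:
Tet2: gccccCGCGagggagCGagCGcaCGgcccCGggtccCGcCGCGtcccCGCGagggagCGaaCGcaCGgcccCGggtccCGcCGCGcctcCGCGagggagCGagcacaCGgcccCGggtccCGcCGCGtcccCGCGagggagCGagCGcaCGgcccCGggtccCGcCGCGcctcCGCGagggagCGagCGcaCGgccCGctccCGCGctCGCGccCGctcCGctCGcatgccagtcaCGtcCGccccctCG
This window holds 51 CG pairs, at the percentile of 100.0.

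Tet3 (chr6:83312367-83391672, minus strand), the TET enzyme of oocytes and many somatic tissues, went the other way. H3.3 was 627.0 over 44.9 kb at D0, 358.7 at D3, 617.4 at D6T-, 317.7 at D9T-, 100.6 at D12S+, 10.9 at D16S+ and 67.0 over 5.01 kb for iPSCs. The other fractions held 285.7 at D6T+, 376.7 at D9T+, 580.8 at D12S- and 310.0 at D16S-, so on days 12 and 16 the SSEA-1-negative cells were above the SSEA-1-positive cells. ESD3, with 21.5, and iPSCs were both below every reprogramming library up to day 9. The iPSCs-over-D0 log2 ratio was -3.23 (-3.42 to -3.04), a 9.36-fold lower score, and the mean score per kb of peak was 0.957 times that of D0. The ratio kept its sign in each of 9 other settings, between -1.13, with MEF in place of D0, and -4.87, with ESD3 in place of iPSCs. At the Tet3 start H3K4me3 was 250.9 at D0, 168.0 at D3, 165.4 at D6T-, 117.8 at D9T-, 33.9 at D12S+, 10.4 at D16S+ and 44.6 for iPSCs, and H3K36me3 over the gene 500.8, 232.0, 226.8, 1381.6, 40.7, 8.3 and 13.0. On the successful route all 3 marks were thus lowest in D16S+ and next lowest in iPSCs or D12S+. This low point was not particular to Tet3. H3K4me3 was lowest in D16S+ for all the genes described but Dnmt3l, and H3.3 also for Dnmt1, Dnmt3a and Tdg. The D16S+ libraries had 4.88% (H3.3), 3.71% (H3K4me3) and 1.99% (H3K36me3) of tags in peaks, and the part of this was not tested. The upstream bases (chr6:83391670-83391919, minus strand) are shown for the Tet start with the lowest H3K4me3 in iPSCs relative to D0:
Tet3: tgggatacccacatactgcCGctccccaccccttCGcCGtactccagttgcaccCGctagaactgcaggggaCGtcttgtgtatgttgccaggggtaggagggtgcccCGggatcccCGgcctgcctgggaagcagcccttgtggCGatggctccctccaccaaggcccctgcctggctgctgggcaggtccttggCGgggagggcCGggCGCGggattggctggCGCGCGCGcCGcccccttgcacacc
They hold 17 CG pairs.

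**Figure D3:**
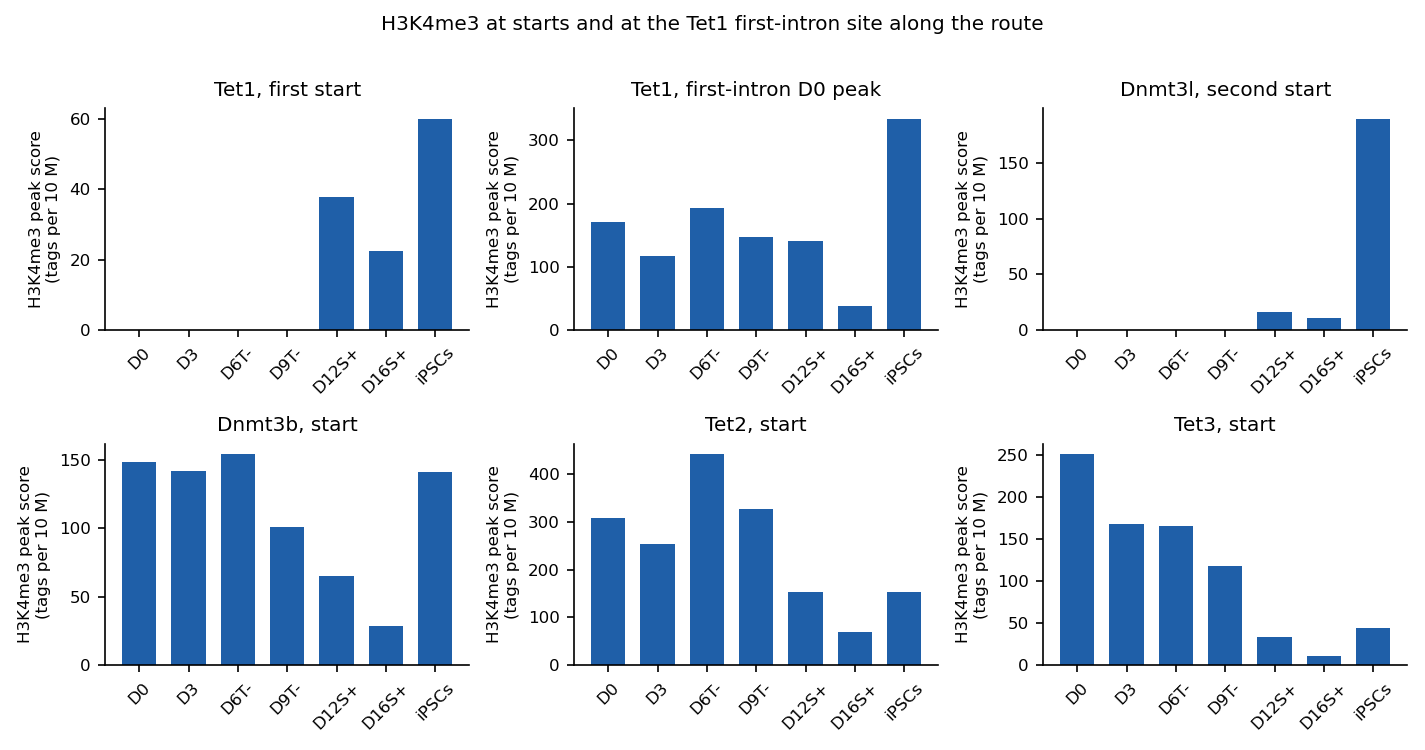
H3K4me3 peak score (tags per 10 M, bars from 0) within 1 kb of annotated starts, and at the D0 peak in the first intron of Tet1, in the 7 libraries of the successful route; scales differ between panels. The first start of Tet1 and the second start of Dnmt3l have no peak until D12S+, while the Tet3 start has 250.9 in D0 and 44.6 in iPSCs.

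Of the de novo group, Dnmt3b and Dnmt3l had higher summed H3.3 scores in iPSCs than in any other library. That held for all called peaks. At a fold over input of at least 4, Dnmt3b had 2 of its 10 iPSC peaks with a score of 23.0 and no D0 peak, and Dnmt3l had none of its 7 iPSC peaks and 1 D0 peak of 11.5. Dnmt3b (chr2:153475186-153513466, plus strand) held 18.4 over 1.26 kb at D0, 9.1 at D3, 15.2 at D6T-, 10.7 at D9T-, no peak at D12S+, 15.7 at D16S+ and 208.3 over 18.2 kb for iPSCs. The other fractions held 7.2, 15.6, 9.9 and 0.0, ESD3 25.6 and MEF 0.0. Among these 13 libraries only iPSCs stood apart, the rest lying between 0.0 and 25.6, and D4 of the second series held 37.1. The iPSCs-over-D0 log2 ratio was 3.50 (3.09 to 3.94). Of 10 iPSC peaks across the gene, 1 was overlapped by a peak at D0 and 2 in ESD3. The H3K4me3 score per 10 M tags did not follow. At the Dnmt3b start it was 148.4 at D0, 141.7 at D3, 153.9 at D6T-, 101.0 at D9T-, 65.3 at D12S+, 28.5 at D16S+ and 140.7 for iPSCs. D0 and iPSCs thus did not differ beyond counting error (log2 ratio -0.08, -0.27 to 0.11), over a shorter stretch of 2.06 against 5.17 kb. The median H3K4me3 ratio over all genes with both was -1.38, and that of Dnmt3b lay at the percentile of 93.9. Scaled to tags inside peaks, the Dnmt3b ratio turned to 1.18. H3K36me3 had no Dnmt3b peak at D0, D3, D6T- or D12S+, 1 peak of 10.1 at D9T- and 1 of 10.6 at D16S+, and 10 peaks in iPSCs with 133.2 over 9.33 kb, lying from 4.01 to 32.57 kb after the start. Dnmt3b thus had H3K4me3 at its start in each of the 7 libraries, and H3.3 and H3K36me3 along the gene body mainly in iPSCs. The upstream bases (chr2:153474936-153475185, plus strand, 21 CG pairs) are shown because they lie at this start:
Dnmt3b: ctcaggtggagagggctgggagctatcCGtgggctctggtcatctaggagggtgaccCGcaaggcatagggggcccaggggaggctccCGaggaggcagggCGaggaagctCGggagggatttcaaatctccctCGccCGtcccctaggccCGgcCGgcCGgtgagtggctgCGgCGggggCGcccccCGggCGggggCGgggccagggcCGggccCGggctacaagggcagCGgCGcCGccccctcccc

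Dnmt3l (chr10:77504692-77526367, plus strand) held H3.3 of 11.5 over 0.786 kb at D0, none at D3 and D6T-, 8.5 at D9T-, 16.2 at D12S+, 40.3 at D16S+ and 155.6 over 13.4 kb for iPSCs, a log2 ratio of iPSCs over D0 of 3.76 (3.24 to 4.33). D12S- and D16S- held 8.0 and 10.5, and D6T+, D9T+, ESD3 and MEF had no peak. D16S+ and iPSCs were thus above the other libraries. H3K4me3 over the gene was 35.3 at D0, 15.5 at D3, 17.0 at D6T-, 0.0 at D9T-, 28.8 at D12S+, 69.3 at D16S+ and 216.7 for iPSCs, with a log2 ratio of 2.62 (2.32 to 2.93), higher than in 99.8% of genes with a peak in both. Of the 3 annotated starts, the second, 7.6 kb after the first, had no peak up to D9T-, then 16.2 at D12S+ and 11.1 at D16S+, and lay in iPSCs under a peak of 190.0 over 8.51 kb that also covers the other downstream start. The first start held 16.3 at D0 and 26.7 for iPSCs. H3K36me3 was seen in iPSCs alone, at 21.4 over 1.5 kb in 2 peaks. The gene window overlaps Aire on the opposite strand, and these peaks cannot be told apart by strand. The bases upstream of the second start (chr10:77512337-77512586, plus strand) are shown because H3K4me3 was seen at this start from D12S+ on:
Dnmt3l second start: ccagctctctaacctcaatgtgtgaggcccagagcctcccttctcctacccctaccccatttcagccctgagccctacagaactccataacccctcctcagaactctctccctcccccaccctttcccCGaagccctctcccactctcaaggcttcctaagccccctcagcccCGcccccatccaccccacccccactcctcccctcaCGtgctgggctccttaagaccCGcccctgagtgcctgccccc
They hold 4 CG pairs, at the percentile of 36.1, and the letters CACGTG, searched on both strands and found in 6.52% of upstream windows of all genes. The same letters stand upstream of the second start of Dnmt3a and of Tdg, and GGGTGTG, found in 7.13% of all windows, upstream of the third Dnmt3l start. TTTGCAT (3.93%), AAGGTCA (3.41%) and CATTGTT (3.09%) are in none of the 13 windows. These matches are descriptions and say nothing of binding.

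Dnmt3a (chr12:3806007-3914443, plus strand) showed no comparable gain. H3.3 was 126.3 over 8.89 kb at D0, 77.1 at D3, 138.3 at D6T-, 106.9 at D9T-, 56.0 at D12S+, 51.0 at D16S+ and 116.9 over 9.91 kb for iPSCs, with 143.4 in ESD3 and 145.4 in MEF. D0 and iPSCs did not differ beyond counting error (log2 ratio -0.11, -0.31 to 0.09). D12S- and D16S-, with 260.9 and 175.4, were above both of them. H3K4me3 at the first start was 214.3 at D0, 184.6 at D3, 201.3 at D6T-, 132.5 at D9T-, 44.8 at D12S+, 0.0 at D16S+ and 65.1 for iPSCs, and at the second start, 84.7 kb on, which gives a shorter protein, 110.6, 93.4, 102.1, 68.2, 37.1, 17.4 and 56.2. The first start was thus the higher in D0 and the difference had narrowed in iPSCs. H3K36me3 was 304.5 over 18.6 kb at D0 and 8.4 over 0.626 kb for iPSCs.

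Of the maintenance pair, the H3.3 score of Dnmt1 was lower in iPSCs than in D0 and that of Uhrf1 did not differ beyond counting error, and both depended on the libraries and peaks compared. Dnmt1 (chr9:20711650-20757317, minus strand) held H3.3 of 352.5 over 23.7 kb at D0, 139.2 at D3, 340.0 at D6T-, 120.6 at D9T-, 71.8 at D12S+, 41.9 at D16S+, 176.8 over 15.5 kb in iPSCs and 175.1 in ESD3. D0 and D6T- stood well above the rest, and D16S+ was the lowest. Its log2 ratio of iPSCs over D0 was -1.0 (-1.14 to -0.85), a 1.99-fold lower score and just short of 2-fold. Uhrf1 (chr17:56442744-56462909, plus strand) held 167.4 over 11.2 kb at D0, 111.9 at D3, 295.9 at D6T-, 155.8 at D9T-, 90.9 at D12S+, 94.6 at D16S+, 176.6 over 15.1 kb in iPSCs and 74.6 in ESD3, with a log2 ratio of 0.08 (-0.09 to 0.25). In MEF Dnmt1 held 102.0 and Uhrf1 68.6, so with MEF in place of D0 both were higher in iPSCs, by a log2 ratio of 0.79 (0.63 to 0.96) and 1.36 (1.17 to 1.56). With peaks of fold over input of at least 4 alone Uhrf1 was at 167.4 in D0 and 9.6 in iPSCs, a log2 ratio of -4.12, and Dnmt1 at 282.4 and 11.4. Among the 12 reprogramming libraries the highest Uhrf1 score was in D6T- and the lowest in D6T+, at 44.7, the fractions of the same day. H3K4me3 at the Dnmt1 start was 221.3 at D0, 36.7 at D16S+ and 148.6 for iPSCs, and at the Uhrf1 start 250.6, 55.0 and 139.6. H3K36me3 on Dnmt1 was 468.2 over 30.2 kb at D0, 1337.2 in 1 peak of 39.6 kb at D9T- and 231.5 over 16.0 kb for iPSCs.

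Tdg (chr10:82092573-82113544, plus strand) held H3.3 of 35.8 over 2.47 kb at D0, 43.6 at D3, 35.2 at D6T-, 38.4 at D9T-, 23.3 at D12S+, no peak at D16S+ and 69.2 over 6.29 kb for iPSCs. The other fractions held 13.5 at D6T+, 6.7 at D9T+, 54.2 at D12S- and 67.3 at D16S-. The values of the successful route up to D9T- lay within each other's counting error. Its log2 ratio of iPSCs over D0 was 0.95 (0.61 to 1.30). At a fold over input of at least 4, none of the 4 iPSC peaks remained, and 1 D0 peak of 7.0 did. Tdg held 14.3 in MEF and 30.8 in ESD3, the latter a log2 ratio over D0 of -0.22 (-0.69 to 0.25). H3K4me3 at its start was 177.5 at D0, 39.5 at D16S+ and 75.7 for iPSCs. The end of Tdg overlaps the neighbouring Glt8d2, so peaks there may belong to either.

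Set side by side over all genes, the 9 differed in direction in H3.3. Of genes with a peak in both D0 and iPSCs, 16.4% were at least 2-fold higher in iPSCs and 38.0% at least 2-fold lower. Of the 9, 4 were higher (Dnmt3b, Dnmt3l, Tet1 and Tet2), 1 was lower (Tet3) and 4 differed by less than 2-fold. The median log2 ratio was 0.95 for the 9 and -0.53 for all genes with both. With peaks of fold over input of at least 4 alone, 0 of the 9 were higher and 6 lower, these being all 6 with such a peak in both. In that setting 22.6% of all iPSC H3.3 peaks and 55.1% of all D0 peaks remained. The share of all genes is not given for it, so these counts are not set against a background. With ESD3 in place of iPSCs, of the 8 with both 1 was higher (Tet2) and 3 lower (Dnmt1, Uhrf1 and Tet3), against 7.5% higher and 62.8% lower of all genes with both. So of the 4 higher genes Tet2 alone was also at least 2-fold higher in ESD3. Of these pluripotent libraries, only iPSCs gave the calls for Dnmt3b, Dnmt3l and Tet1. On the successful route Tet1 was also above D0 (100.8) at D12S+ (264.4) and D16S+ (385.5). Dnmt3l was above D0 (11.5) at D16S+ (40.3), while Dnmt3b was not (18.4 and 15.7). The median ESD3-over-D0 log2 ratio of all genes was -1.51. Tet1 (0.21) and Dnmt3b (0.48) lay at the percentiles of 84.7 and 88.1, and Dnmt3l had no ESD3 peak. For H3K4me3, 1.62% of genes were at least 2-fold higher and 72.6% lower. Of the 9, Dnmt3l was higher and 3 were lower, namely Dnmt3a (log2 ratio -1.0), Tet3 (-2.31) and Tdg (-1.27), and the median was -0.69, against -1.38 for all genes. For H3K36me3, 91.3% of genes with both were lower, as were all 7 of the 9 genes with both, and 6.11% of genes without a D0 peak had one in iPSCs, as did both Dnmt3b and Dnmt3l. The share of tags in peaks moved with these counts, from 30.4% to 12.7% for H3K4me3 and from 31.3% to 2.88% for H3K36me3 between D0 and iPSCs, and its part in them was not tested. Scaled to tags inside peaks, H3K4me3 was higher in 4 and lower in 1 of the 9, and H3K36me3 higher in 3 and lower in 3. The shares of all genes are not given for this scaling either.

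**Figure D4:**
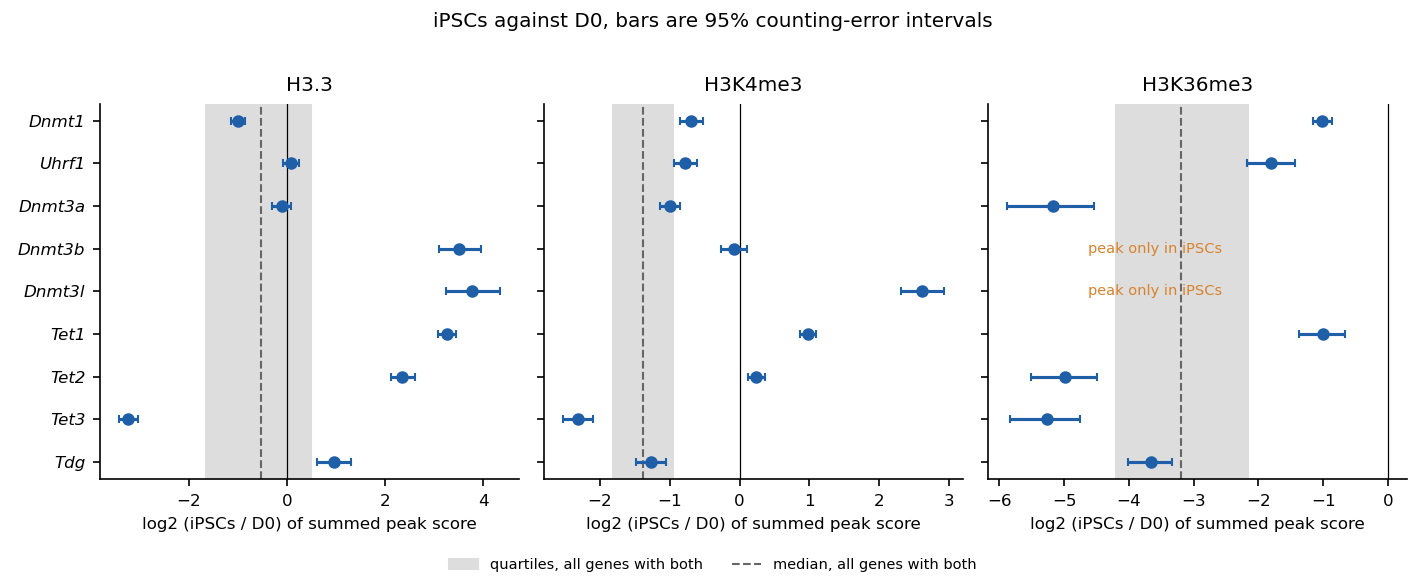
log2 ratio of summed peak score, iPSCs over D0, of the 9 genes for H3.3, H3K4me3 and H3K36me3, with 95% counting intervals; the grey band and dashed line are the quartiles and median of all genes with a peak in both. Dnmt3b, Dnmt3l, Tet1, Tet2 and Tdg lie right of the band for H3.3, Dnmt3l lies at 2.62 for H3K4me3, and Tet3 is left of the band for all 3 marks.

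The sorted fractions put Tet1 and Tet3 on opposite sides on days 9, 12 and 16, while on day 6 both were higher in the successful fraction. Tet1 H3.3 was higher in the successful fraction on 4 of 4 days, as were 1.1% of genes with a peak in either fraction on each day. The log2 ratio of the successful over the other fraction was 0.44 (0.12 to 0.77) for day 6, 1.02 (0.77 to 1.27) for day 9, 0.34 (0.17 to 0.50) for day 12 and 1.83 (1.62 to 2.06) at the last sort. The day 6 value lay below the median of all genes, 0.91, and turned to -0.38 when scaled to tags inside peaks, to -0.30 with equal numbers of peaks and to -0.36 with peaks of fold over input of at least 4, so Tet1 was then higher on 3 of 4 days. Tet3 was higher in the successful fraction on day 6 (1.11) and lower on day 9 (-0.25, and 0.08 without the 1 kb flanks), day 12 (-2.53) and day 16 (-4.83, -5.54 to -4.20). Over the 9 genes the successful fraction was higher for 8 on day 6, 6 on day 9, 2 on day 12 and 3 on day 16. The share among all genes with a peak in either was 81.9%, 65.9%, 6.63% and 16.1% on these days. The 2 on day 12 were Dnmt3l (1.01) and Tet1, and the 3 on day 16 Dnmt3l (1.94), Tet1 and Dnmt3b, which had 15.7 at D16S+ and no peak at D16S-. The D12S- library had 22.0% of tags in peaks and D12S+ 6.93%. The lower values of most genes in D12S+ went with that, and the part of the share in them was not tested. On day 6 the largest gap was that of Tet2 at 3.62 (3.27 to 3.99), followed by Uhrf1 at 2.73 (2.42 to 3.05), both above the upper quartile of all genes, 1.61.

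**Figure D5:**
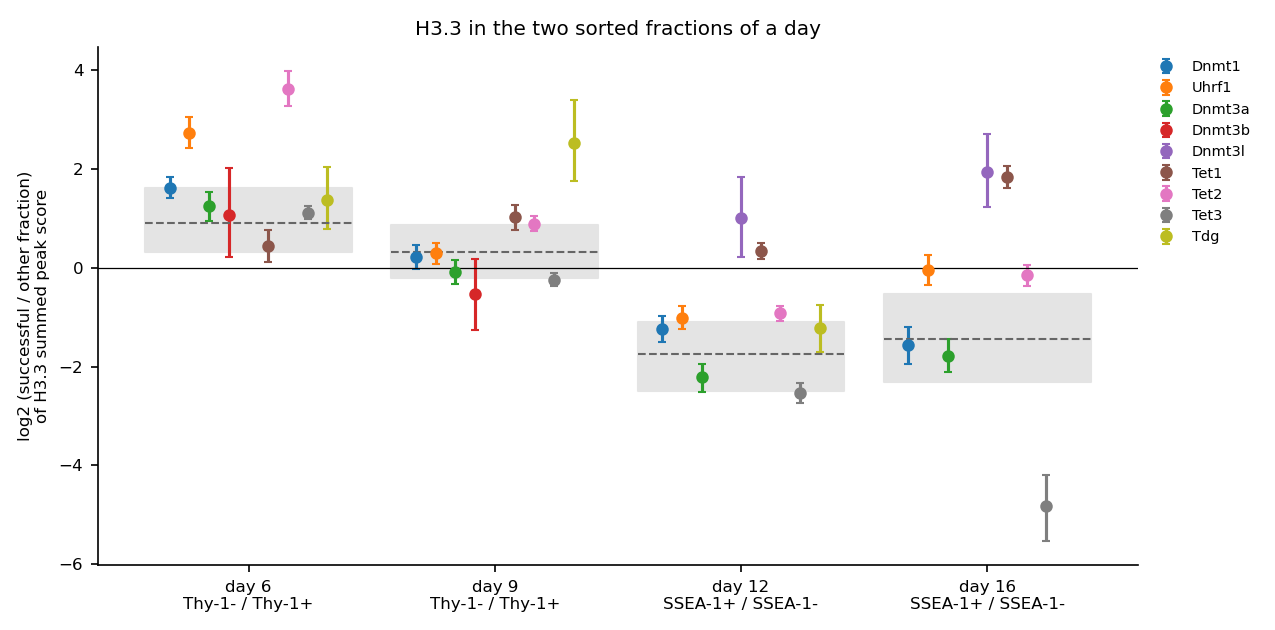
log2 ratio of H3.3 summed peak score, successful over other fraction, for each of the 9 genes with a peak in both on each sorted day, with 95% counting intervals; grey bands and dashed lines are the quartiles and median of all genes. Tet1 is above 0 on all 4 days, and Tet3 is at 1.11 on day 6 and -4.83 on day 16.

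Libraries of like cells show how far single libraries can lie apart. D0 and MEF are both fibroblasts, prepared for the separate series. Of genes with both, 63.5% were at least 2-fold higher in D0. Of the 9, 7 had both, and 5 of these were higher (Dnmt1, Uhrf1, Tet2, Tet3 and Tdg), with Tet2 at a log2 ratio of 2.67 (2.17 to 3.2) and Tet3 at 2.10 (1.97 to 2.23). Between iPSCs and ESD3, 47.6% of genes with both were at least 2-fold higher in iPSCs. Of the 9, 8 had both, and 5 of these were higher, with Tet1 at 3.05 (2.86 to 3.24) and Dnmt3b at 3.02 (2.63 to 3.44). In score, the gap between these pluripotent libraries was thus about as large on Tet1 and Dnmt3b as that between iPSCs and D0. The medians over all genes with both differed, at 0.93 for iPSCs over ESD3 and -0.53 for iPSCs over D0. Less these medians, Tet1 was at 2.11 and 3.79 and Dnmt3b at 2.09 and 4.03, so the gap to ESD3 was then the smaller. The score of Dnmt1 (0.01, -0.17 to 0.20) did not differ between iPSCs and ESD3 beyond counting error, and that of Dnmt3a was slightly lower in iPSCs (-0.29, -0.50 to -0.08). Less the median of 0.93, they were at -0.92 and -1.23. For Tet3 the distance of both pluripotent libraries from D0 (-3.23 and -4.87) was beyond that of MEF from D0.

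In the transdifferentiation series the 9 genes moved in the direction of the libraries as a whole, though Tet2 fell less than most genes from D4 to cKit+. From MEF to D4, 95.0% of genes with both were at least 2-fold higher, as were all 7 of the 9 with both. Dnmt3b (37.1) and Dnmt3l (16.8) had a peak in D4 and none in MEF, as did 42.1% of genes without a MEF peak. Tet3 was 146.3 in MEF, 841.9 over 63.8 kb in D4, 26.1 in cKit+ and 15.7 in cKit-, and Dnmt3a 145.4, 747.5, 0.0 and 4.6. From D4 to cKit+, 98.3% of genes were at least 2-fold lower, as were all 6 of the 9 with both, and Dnmt3a, Dnmt3b and Dnmt3l had no peak left, as had 54.6% of genes with a D4 peak. Tet2 was the least low of the 6, at 50.7 in D4 and 17.7 in cKit+ (log2 ratio -1.52, against a median of -4.35 over all genes), and was 42.9 in cKit-. The cKit libraries held 13 H3.3 peaks each on the 9 genes, against 65 in D4 and 36 in MEF.

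H3.3 peaks lay on 9 of the 9 genes in both D0 and iPSCs, where 61.8% and 61.1% of all genes had one, and on 7 in MEF (53.2%), 9 in D4 (72.1%), 6 in cKit+ (33.2%) and 7 in cKit- (31.8%). H3K4me3 peaks lay on all 9 in both D0 and iPSCs (70.2% and 69.0%), and H3K36me3 peaks on 7 in D0 and 9 in iPSCs (49.7% and 34.7%). The marks sat in different parts of the genes. In iPSCs, 12 of 40 H3K4me3 peaks of the 9 genes lay within 1 kb of a start and held 58.8% of the summed score, against 79.1% in D0. For H3.3 these were 17 of 98 peaks with 22.9% of the score, and 48 peaks lay in introns. None of the 38 H3K36me3 peaks in iPSCs lay within 1 kb of a start, and 21 overlapped an exon.

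Other genes of the pathway were read from a list of 32 readers, cofactors and repair enzymes. In H3.3, 4 were at least 2-fold higher in iPSCs than in D0, 8 lower and 16 under 2-fold, 1 had a peak in iPSCs alone and 2 at D0 alone, with a median log2 ratio of -0.32 over the 28 with both, where 16.4% of all genes were higher, 38.0% lower and the median was -0.53. The highest were Zfp57, which guards methylation at imprinted regions (10.9 at D0, 154.7 in iPSCs, 114.3 in ESD3), Apex1, the base-excision endonuclease (43.2, 175.2 and 39.8), and Usp7, a deubiquitinase that binds Dnmt1 and Uhrf1 (368.0, 1132.7 and 584.0). The lowest were Cxxc4, a CG-binding protein (50.1, 5.0 and 0.0), Uhrf2, the paralog of Uhrf1 (510.9, 58.3 and 14.8), and Mbd2, a reader of methylated CG (340.7, 44.3 and 84.0). For Zfp57 and Usp7 iPSCs and ESD3 lay on the same side of D0, and for Usp7 and Apex1 ESD3 did not differ from D0 by 2-fold. Dppa3, which protects methylation in the early embryo, had no peak at D0, 42.2 in iPSCs and 15.7 in ESD3. Dmap1, a Dnmt1 partner, and Smug1, a DNA glycosylase, had 19.1 and 33.5 at D0 and none in iPSCs or ESD3. In H3K4me3, of the 30 with a peak in both, 1 was higher (Dppa3, log2 ratio 1.65) and 16 lower, where 1.62% and 72.6% of all genes were. In H3K36me3 all 19 with a peak in both were lower, where 91.3% of all genes were. Another 8 had a peak at D0 alone and 1 in iPSCs alone, where 6.11% of genes without a D0 peak had one in iPSCs. Over all genes, H3K36me3 peaks lay on 49.7% in D0 and 34.7% in iPSCs, and H3.3 peaks on 61.8% and 61.1%. The other shares of genes with a peak in D0 or iPSCs alone are not given here, so those counts have no background beside them.

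The genes whose H3.3 resembled a member most were found by Pearson's r of log2(score + 1) over the 12 reprogramming libraries, among 13303 genes with a peak in at least 6. Libraries share their depth and enrichment, so these are descriptions. Tet3 was most like Rac1 (r = 0.995), Fstl1 (0.994) and Itpr2 (0.990). Tet1 was most like Dhrs7 (0.925), Manba (0.907) and Dnmt3l (0.894), and Dnmt3l in turn was most like Gm5077 (0.939) and 2410017I17Rik (0.919), followed by Tet1. Tet2 was most like Gm867 (0.954), Dnmt3b like Homer2 (0.883), Dnmt1 like Pygm (0.961), Uhrf1 like Gm608 (0.953), Dnmt3a like Ada (0.929) and Tdg like Fbxl8 (0.971). Among the 9, the r of Tet1 with Tet2 was 0.54 and with Tet3 -0.55.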

How the data were processed

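ChIP-Seq tags were mapped by the authors to mm9 with STAR, keeping tags with at most 2 mismatches and a single locus, and peaks were called per library against input with HOMER in histone style (versions not given in the sources used here). Peaks had to exceed input 2-fold for H3.3 and 4-fold for the other marks, at a p-value of 0.0001 at most. Per the file headers, the deposited score is a signal, the tag count per 10 M tags, and the deposited fold over input is a ratio. Tags were recovered as score times total tags.

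From these, scores were summed per gene (Python 3.11.15, pandas 2.3.3, SciPy 1.17.1), with exact Poisson intervals and Clopper-Pearson intervals for ratios. They cover counting error only. With 1 library per group no test was made. A gene with peaks in both libraries was called higher or lower at 2-fold. A score of 0 means no called peak. The sums were checked on simulated peaks. Chromosome lengths were checked against NCBIM37. The sequences are from that genome. Input libraries entered through the fold over input only. The genes, lists and comparisons were chosen with earlier results of these data known. All 9 genes are named. Of the list of 32, the 3 highest, the 3 lowest and those with a peak in D0 or iPSCs alone are named, and for each gene up to 3 most alike. The motifs were searched on both strands of the upstream 250 bases. 6 alternatives were planned and 3 added after seeing the data.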

Additional observations from a re-analysis of the deposited data

Results flagged for a closer look

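In 6 cases, each 1 gene over 1 pair of days, the H3.3 score of the successful and of the other fraction had log2 changes of opposite sign between the days sorted by the same antigen, with a gap of at least 1. That holds for 5 of the 8 genes with a peak in all 4 libraries between days 6 and 9, against 28.9% of all such genes, and for 1 of 7 between days 12 and 16, against 19.0%. With 1 library per fraction and day the difference was not tested. From day 6 to day 9, the log2 change of Uhrf1 was -0.93 in the Thy-1-negative and 1.51 in the Thy-1-positive cells, a gap of -2.44. The same held for Dnmt3b (-0.51 and 1.11, gap -1.62), for Tet3 (-0.96 and 0.40, gap -1.36) and for Dnmt3a (-0.37 and 0.95, gap -1.32). For Tdg the signs were the other way, 0.12 and -1.02, a gap of 1.14. The changes of Dnmt3b (-1.19 to 0.16) and Tdg (-0.26 to 0.51) in the Thy-1-negative cells did not differ from 0 beyond counting error. From day 12 to day 16, the log2 change of Tet1 was 0.54 in the SSEA-1-positive and -0.95 in the SSEA-1-negative cells, a gap of 1.5. Between day 6 and day 9 the share of tags in peaks went from 19.3% to 14.8% in the Thy-1-negative and from 10.9% to 12.1% in the Thy-1-positive libraries, and its part in these gaps was not tested.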

How the results depend on the processing

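No paired analysis was possible because each group is 1 library without a replicate number, and for the same reason no library could be left out of a group. With equal numbers of top-scoring peaks 18 of 18 iPSCs-over-D0 log2 ratios kept their sign, and with only the part of a peak inside the window counted, 25 of 25. The other settings had exceptions, and shares of all genes are not given here for the counts in them. With peaks of fold over input of at least 4, 3 of 6 H3.3 ratios kept their sign and those of Tet1 (-2.29), Tet2 (-1.12) and Uhrf1 (-4.12) turned, 0 genes were higher and 6 lower, and the successful fraction was higher for 5 genes on day 6, 2 on day 9 and 1 on day 12. Fewer peaks, 22.6% of those of iPSCs and 55.1% of those of D0, enter that setting. Scaled to tags inside peaks, 17 of 25 kept their sign, and H3.3 turned for Dnmt3a (0.34), H3K4me3 for Dnmt3a (0.25), Dnmt1 (0.57), Uhrf1 (0.48) and Dnmt3b (1.18), and H3K36me3 for Dnmt1 (2.43), Uhrf1 (1.65) and Tet1 (2.43). H3K4me3 was then higher in 4 and lower in 1, H3K36me3 higher in 3 and lower in 3, and the successful fraction higher for 6 genes on day 12 and 5 on day 16. With equal peak numbers 0 genes were higher in H3K4me3, 2 lower in H3K36me3, and 5 higher in the successful fraction on day 16. Without the 1 kb flanks, or with the input's share taken off, 2 genes were lower in H3.3, as Dnmt1 passed 2-fold, and the H3.3 ratio of Uhrf1 turned to -0.39 and -0.24, and to -0.22 by peak midpoint, with 24 of 25 signs kept in each. With ESD3 in place of iPSCs 1 was higher and 3 lower in H3.3, and Uhrf1 (-1.16), Tdg (-0.22) and Dnmt3a (0.18) turned. With MEF in place of D0, Dnmt1 turned (0.79). Causes other than these constructions were not tested. Depth limits the low genes most, since a peak must be called before its tags count.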
